A study of Mus musculus with 6 samples.

Results

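The genes of the circadian clock were followed in RNA of kidney cells in 3 libraries of Trf1+/+ and 3 of Trf1flox/flox mice. The list held 10 core clock and output genes, *Per1*, *Per2*, *Per3*, *Cry1*, *Cry2*, *Arntl*, *Clock*, *Nr1d1*, *Nr1d2* and *Dbp*, and the members were those whose symbol has a row in the deposited table. Of the 10 genes, 8 had a row among the 12125 genes of the table, and *Per1* and *Cry2* were not analysed here. Both genotypes carried the Cre recombinase CreERT2 under the *Col1a2* promoter, which is active in fibroblasts, and an allele of the Katushka fluorescent protein (KFP) that Cre switches on. The Trf1flox/flox mice also carried *Trf1* alleles that Cre deletes. All mice, male and female, were 6 to 8 weeks old at the first dose and received tamoxifen 3 times a week for 8 weeks. For each library 500 cells were used that had been sorted with antibodies against CD29 and KFP, and the comparison asks whether expression differed between the genotypes after tamoxifen. The hour at which the kidneys were taken is not given in the sources used here, so that a difference in clock phase between mice and a difference by genotype cannot be told apart in any value below.

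The clock of mammalian cells is a transcriptional feedback loop. ARNTL (also called BMAL1) and CLOCK bind E-box sequences and switch on the *Per* and *Cry* genes, whose proteins return to the nucleus and inhibit ARNTL and CLOCK. A second loop is formed by the nuclear receptors NR1D1 and NR1D2 (REV-ERB alpha and beta), which repress *Arntl*, against the ROR receptors, which activate it. DBP, a transcription factor of the PAR bZIP family that binds D-box sequences, carries the rhythm to output genes. In kidney and other peripheral tissues *Arntl* is known to peak nearly opposite to *Nr1d1*, *Dbp* and the *Per* genes, while *Clock* changes little over the day.

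The values are normalized counts, in which the reads of a gene are divided by 1 size factor per library. The libraries held 10263382 to 12248797 reads on the listed genes, and 1 read was worth 0.689 to 1.09 normalized counts. Values of 3 reads or fewer, equal to 2.07 to 3.28 normalized counts by library, are called the floor, which covers counting error only. *Terf1*, which encodes TRF1, stood at 0.891, 253 and 235 normalized counts in Trf1+/+ replicates 1, 2 and 3 and at 110.0, 7.65 and 12.4 in Trf1flox/flox replicates 1, 2 and 3. With a single *Terf1* read, the library labelled Trf1+/+ replicate 1 ran counter to its label, and Trf1flox/flox replicate 1 stood above the other 2 libraries of its genotype on 128 reads. Trf1+/+ replicate 1 also had the most tested genes at the floor, 34.4%, followed by Trf1flox/flox replicate 2 with 20.0%, against 2.48% to 11.2% in the other 4. The fibroblast marker *Col1a2* was at or under 1.78 normalized counts in all 6 libraries, and of the 13 fibroblast markers 3 were listed. *Dcn* had up to 1 read in 3 libraries and 39.3 to 97.3 normalized counts in the other 3, and *Gsn*, which many cell types express, had 79.0 to 1671. All 14 markers of the proximal tubule were listed, with summed levels of 39834 to 169165 in Trf1+/+ and 47765 to 188906 in Trf1flox/flox libraries, and *Slc5a2* was the only marker of them at 0 in a library (Trf1+/+ replicate 1). The 12 markers of the loop, distal tubule and collecting duct summed to 74433 to 130435 and 56942 to 157028. The summed level of the listed fibroblast markers, 81.6 to 1673, thus came mostly from *Gsn*. In such bulk RNA fewer cells of a type and less RNA per cell cannot be told apart.

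The windows before the start sites of 5 members with values held the letters of elements that clock proteins are known to bind, and 4 of them are shown. Of the 10 genes, 9 had a promoter window in the RefSeq table (build GRCm38.p6), 13 windows in all, and the 250 bases before each start site were searched on both strands. The first motif was the E-box CACGTG, which reads alike on both strands. The E-prime box differs from it in the last letter and was searched as CACGTT, which the opposite strand shows in the form AACGTG. The D-box, bound by DBP and its relatives, was TTATGTAA, which the opposite strand shows in the form TTACATAA. The element of the ROR and REV-ERB receptors was AGGTCA, which the opposite strand shows in the form TGACCT and which is called the ROR element here. No matches overlapped in the sequences shown. Over the 32851 windows of the table, 6.02% held the E-box, 3.85% the E-prime box, 0.819% the D-box and 14% the ROR element. *Cry1* is shown because it held both kinds of E-box, *Nr1d1* because its groups were the only ones among the members that did not overlap, *Nr1d2* for the element that its own receptor family binds, and *Per3* for 2 copies of the D-box. Bases that GENCODE places in an exon were left out, the strand is minus in all 4, and capitals mark the motifs.
*Cry1*, chr10:85185065-85185304: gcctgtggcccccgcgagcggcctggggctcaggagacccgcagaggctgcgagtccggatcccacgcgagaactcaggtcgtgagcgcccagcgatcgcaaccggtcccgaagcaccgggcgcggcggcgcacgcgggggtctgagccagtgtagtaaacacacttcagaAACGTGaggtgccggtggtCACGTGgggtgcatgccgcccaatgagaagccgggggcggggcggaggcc
*Nr1d1*, chr11:98775378-98775627: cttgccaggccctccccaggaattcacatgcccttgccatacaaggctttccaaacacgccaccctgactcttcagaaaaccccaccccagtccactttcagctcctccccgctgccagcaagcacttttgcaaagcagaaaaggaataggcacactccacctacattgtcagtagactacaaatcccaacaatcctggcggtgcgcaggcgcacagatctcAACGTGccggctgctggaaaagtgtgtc
*Nr1d2*, chr14:18239128-18239356: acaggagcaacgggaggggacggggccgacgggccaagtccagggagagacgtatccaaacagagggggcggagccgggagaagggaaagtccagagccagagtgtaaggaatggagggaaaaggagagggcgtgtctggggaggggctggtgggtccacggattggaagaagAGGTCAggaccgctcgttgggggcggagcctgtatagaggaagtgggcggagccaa
*Per3*, chr4:151044666-151044915: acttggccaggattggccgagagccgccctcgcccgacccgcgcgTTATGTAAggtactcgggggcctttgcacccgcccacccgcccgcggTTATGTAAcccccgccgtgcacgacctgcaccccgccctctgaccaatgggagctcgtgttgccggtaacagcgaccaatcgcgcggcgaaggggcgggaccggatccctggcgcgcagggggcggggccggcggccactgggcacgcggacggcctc
In *Cry1* the E-prime box began 79 and the E-box 60 bases before the start, and in *Nr1d1* the E-prime box began 28 bases before it. The ROR element of *Nr1d2* began 77 bases and the D-boxes of *Per3* began 205 and 158 bases before the start. The windows of *Arntl* and *Dbp* held none of these letters, and 1 of the 3 windows of *Clock* held the ROR element. Of the genes without a row, *Cry2* held the E-prime box, and 1 window of *Per1* held the E-box and the ROR element. A match describes the letters only.

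Of the 2 activators, *Clock* was the most even member and *Arntl* among the most uneven. *Clock* (ENSMUSG00000029238, chromosome 5, 76209868 to 76304792 on GRCm38) encodes the partner of ARNTL. It had 399, 766 and 310.4 normalized counts in Trf1+/+ replicates 1, 2 and 3 and 411, 765 and 377 in Trf1flox/flox replicates 1, 2 and 3. The groups covered nearly the same range, and the highest library held 2.47-fold the lowest. The mean was 492 ± 242 (SD, n = 3) for Trf1+/+ against 518 ± 215 (SD, n = 3) in Trf1flox/flox mice. On the scale of log2(normalized count + 1), fitted with limma over 9966 genes, the difference of *Clock* (Trf1flox/flox minus Trf1+/+) was 0.11 (standard error 0.82, 95% interval -1.89 to 2.10, adjusted p = 0.996). Within a genotype the SD of its log2 values was 0.62, and 88.5% of the tested genes had a larger one.

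*Arntl* (ENSMUSG00000055116, chromosome 7, 113207465 to 113314126) had 637, 43.1 and 7.88 normalized counts in Trf1+/+, against 6.01, 569 and 15.2 in Trf1flox/flox libraries. Each genotype thus had 1 library far above its others, Trf1+/+ replicate 1 and Trf1flox/flox replicate 2, and these are the libraries with the most tested genes at the floor. Their values rest on 715 and 521 reads, against 7 to 52 reads in the other 4 libraries. The highest library held 106-fold the lowest, with a mean of 229 ± 353 (SD, n = 3) for Trf1+/+ against 197 ± 323 (SD, n = 3) in Trf1flox/flox mice. The log2 difference of *Arntl* was -0.65 (standard error 2.26, 95% interval -6.14 to 4.84, adjusted p = 0.996 from limma). It was 1.02 without Trf1+/+ replicate 1 and -2.56 without Trf1flox/flox replicate 2, so that single libraries set its sign. The SD of its log2 values within a genotype was 3.25, above the median of 2.17 over all tested genes.

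**Figure D1:**
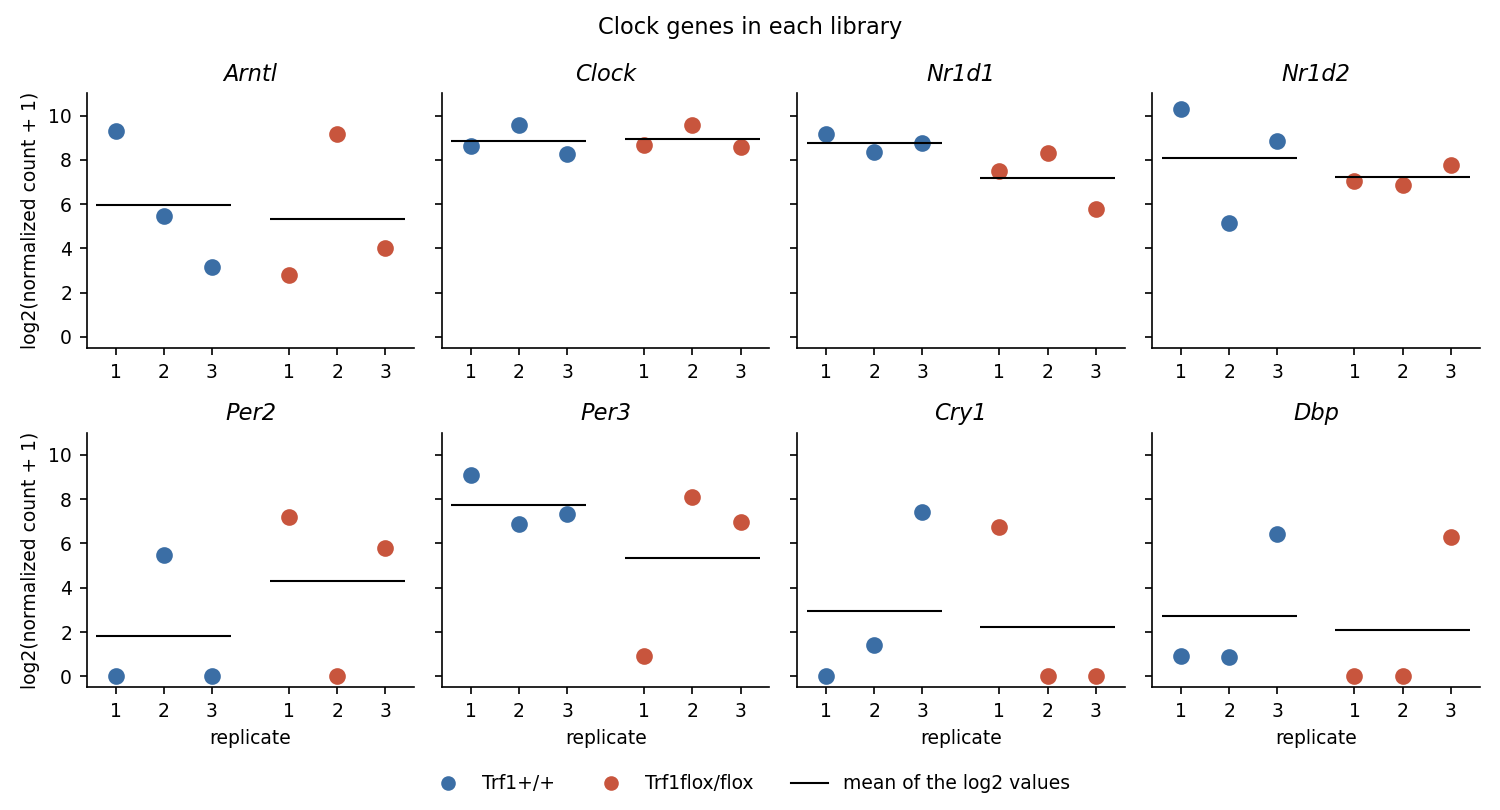
Levels of the 8 listed clock genes in each library as log2(normalized count + 1), with Trf1+/+ in blue, Trf1flox/flox in red, the replicate on the horizontal axis and the mean of each genotype as a bar. *Clock* lies in a narrow band, *Arntl* is high in 1 library of each genotype, and only for *Nr1d1* do all 3 Trf1flox/flox points lie under all 3 Trf1+/+ points.

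The REV-ERB receptors, the repressors of *Arntl*, were lower on average in Trf1flox/flox libraries, and neither passed the test. *Nr1d1* (ENSMUSG00000020889, chromosome 11, 98767932 to 98775333) had 566, 324 and 434 normalized counts in Trf1+/+, against 178, 318 and 53.7 in Trf1flox/flox libraries. Every Trf1+/+ library lay above every Trf1flox/flox library, although replicate 2 of Trf1+/+ with 324 and replicate 2 of Trf1flox/flox with 318 nearly touched. Trf1+/+ mice averaged 441 ± 121 (SD, n = 3) against 183 ± 132 (SD, n = 3) in Trf1flox/flox mice. The log2 difference of *Nr1d1* was -1.56 (standard error 0.95, 95% interval -3.88 to 0.76, adjusted p = 0.996 from limma), and the interval includes 0. It was -0.85 without Trf1flox/flox replicate 3, the library with 53.7, and kept its sign in all 14 alternatives run, the upper quartile scaling (-1.39) included. Because the groups did not overlap, leaving out a library could not turn the sign, so that this adds little.

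*Nr1d1* shares 263 bases of exon with *Thra*, a thyroid hormone receptor gene on the opposite strand, which are 8.55% of its exon bases. The kit does not mark strand, so reads there cannot be told apart. *Thra* had 353, 258 and 21.7 normalized counts in Trf1+/+, against 191, 321 and 127 in Trf1flox/flox libraries, so that its order did not follow that of *Nr1d1*. Among the markers of other cell types, 2 of the distal tubule were lower in Trf1flox/flox mice without overlap, as *Nr1d1* was and as 3.33% of all tested genes were. *Slc12a3*, the sodium chloride cotransporter of the distal convoluted tubule, had 26373, 35066 and 25899 in Trf1+/+ and 17956, 14271 and 18752 in Trf1flox/flox libraries. *Calb1*, which encodes a calcium-binding protein of the same segment, had 27371, 16530 and 11368 and 11124, 1341 and 7907. Over the whole list of loop, distal tubule and collecting duct, 11 of 12 markers were tested, 5 of them higher and 6 lower. *Pvalb*, also on this list, overlapped between the genotypes, with 8159, 6466 and 1133 in Trf1+/+ and 1950, 1651 and 2722 in Trf1flox/flox libraries. No marker of the proximal tubule kept the genotypes apart. The part of these cells in the *Nr1d1* difference was not tested.

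*Nr1d2* (ENSMUSG00000021775, chromosome 14, 18204054 to 18239127) had 1257, 34.8 and 456 normalized counts in Trf1+/+, against 131, 115 and 214 in Trf1flox/flox libraries. The Trf1flox/flox libraries lay close together, while the Trf1+/+ libraries held both the highest and the lowest of the 6 values. The mean was 583 ± 621 (SD, n = 3) against 154 ± 53.3 (SD, n = 3). The log2 difference of *Nr1d2* was -0.88 (standard error 1.44, 95% interval -4.39 to 2.63, adjusted p = 0.996 from limma). Without Trf1+/+ replicate 1 it was 0.22, and without Trf1+/+ replicate 2 it was -2.35. Both receptors were highest in the library labelled Trf1+/+ replicate 1, where *Arntl* was highest as well.

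The repressors of the main loop were detected in some libraries and at the floor in others of the same genotype. *Per2* (ENSMUSG00000055866, chromosome 1, 91415982 to 91459324) had 0, 43.1 and 0 normalized counts in Trf1+/+, against 144, 0 and 53.7 in Trf1flox/flox libraries. It was thus at 0 in 2 libraries of the first genotype and 1 of the second, and the 2 highest values were in Trf1flox/flox mice. It reached 10 normalized counts in 1 Trf1+/+ and 2 Trf1flox/flox libraries. It therefore passed the filter of 3 libraries only with those of Trf1flox/flox mice, where it was higher. Its log2 difference was 2.50 (standard error 2.41, 95% interval -3.38 to 8.37, adjusted p = 0.996 from limma). It was 1.59 without either Trf1+/+ replicate 1 or 3 and 4.66 without Trf1flox/flox replicate 2, where *Per2* was at 0. With 10 in place of 1 added to each normalized count it was 1.40.

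*Per3* (ENSMUSG00000028957, chromosome 4, 151003652 to 151044665), which encodes a period protein less needed for the rhythm than PER1 and PER2, had 544, 115 and 158 normalized counts in Trf1+/+, against 0.859, 273 and 125 in Trf1flox/flox libraries. A single read in Trf1flox/flox replicate 1 stood against 139 to 611 reads in the other 5 libraries, whose ranges overlapped. The log2 difference of *Per3* was -2.43 (standard error 2.02, 95% interval -7.35 to 2.49, adjusted p = 0.996 from limma). Without Trf1flox/flox replicate 1 it was -0.22. The value of *Per3* was therefore set by that library, in which 8.76% of all tested genes were at the floor and in which *Per2* had its highest level, 144. With single libraries left out the difference lay between -3.82 and -0.22.

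*Cry1* (ENSMUSG00000020038, chromosome 10, 85131700 to 85185064), the cryptochrome that holds ARNTL and CLOCK inactive late in the cycle, had 0, 1.66 and 168 normalized counts in Trf1+/+, against 106, 0 and 0 in Trf1flox/flox libraries. It was above the floor in 1 library of each genotype, on 171 and 123 reads. *Dbp* (ENSMUSG00000059824, chromosome 7, 45705088 to 45710203), the output gene, had 0.891, 0.829 and 84.7 in Trf1+/+ and 0, 0 and 77.9 in Trf1flox/flox libraries. It too was above the floor in 1 library of each genotype, replicate 3 in both, on 86 and 113 reads. *Dbp* shares 539 bases, 18.0% of its exon bases, with *Sphk2* on the opposite strand, where reads cannot be told apart. Both genes had at least 10 normalized counts in only 2 libraries and so did not pass the filter of at least 10 in at least 3 libraries. No difference between the genotypes is given for them, and without the filter limma called 0 of the 8 members at an adjusted or an unadjusted p under 0.05.

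Across the 48 values of the 8 members, 12 were at the floor. *Arntl*, *Clock*, *Nr1d1* and *Nr1d2* were above it in every library, and *Per2*, *Per3*, *Cry1* and *Dbp* were not. Of the 6 members that passed the filter, 2 were at the floor in at least 1 library, against 50.2% of all tested genes. At least 2 libraries were at the floor for 1 of the 6, *Per2*, which was there in 3, against 25.5% and 9.22% of all tested genes. The same 3 members, *Per2*, *Cry1* and *Dbp*, were at the floor in both libraries with the highest *Arntl*, Trf1+/+ replicate 1 and Trf1flox/flox replicate 2, where 34.4% and 20.0% of all tested genes were at the floor. In the 4 libraries with low *Arntl*, between 1 and 2 members were at the floor.

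Levels of different genes were compared per kb of exon, and no 2 neighbours in the resulting order were separated by more than their spread over the libraries. By the median over the 6 libraries, *Nr1d1* came first with 104 normalized counts per kb (range 17.5 to 184). *Nr1d2* followed with 32.0 (6.43 to 232) and *Clock* with 29.5 (22.6 to 55.8). The order of *Nr1d2* and *Clock* was even, with each higher in 3 of 6 libraries, whereas *Nr1d1* was above *Nr1d2* in 4. *Per3* had a median of 14.7 per kb (0.0894 to 56.6), and *Clock* was above it in 5 libraries. *Arntl* with 3.87 (0.799 to 84.7) and *Per2* with 3.68 (0 to 24.6) were lower by their medians and each higher than the other in 3 libraries. The medians of *Dbp* (0.287, highest 28.3) and *Cry1* (0.248, highest 50.4) lay at the floor. The genes of the second loop and *Clock* were therefore the best measured, and *Dbp* and *Cry1* the least.

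**Figure D2:**
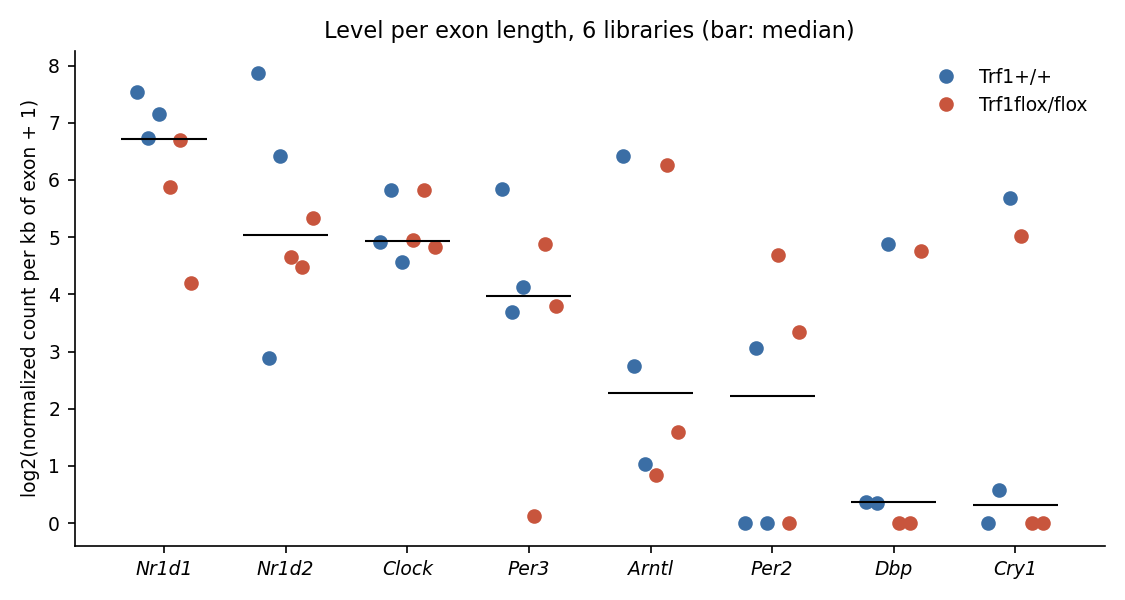
Level of each clock gene as log2(normalized count per kb of exon + 1), ordered by the median over the 6 libraries (bar), with Trf1+/+ in blue and Trf1flox/flox in red. The medians fall from 104 per kb for *Nr1d1* to 0.248 for *Cry1*, and the points of neighbouring genes overlap.

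Because *Arntl* cycles opposite to its targets, its level was set against theirs within each library as a difference of log2(normalized count + 1). Against *Nr1d1* the difference was 0.17, -2.88 and -5.61 in Trf1+/+ and -4.67, 0.84 and -1.76 in Trf1flox/flox libraries. *Arntl* was above *Nr1d1* only in Trf1+/+ replicate 1 and Trf1flox/flox replicate 2, and far below it in Trf1+/+ replicate 3 and Trf1flox/flox replicate 1. Against *Dbp* the difference was 8.40, 4.59 and -3.27 in Trf1+/+ and 2.81, 9.16 and -2.29 in Trf1flox/flox libraries, lowest in replicate 3 of each genotype. Against *Per2* it was 9.32, 0 and 3.15 and then -4.37, 9.16 and -1.76, again highest in the same 2 libraries. Against *Per3* it was 0.23, -1.40 and -4.16 and then 1.92, 1.06 and -2.96, and here the highest was Trf1flox/flox replicate 1, where *Per3* had 1 read. In each of the 4 comparisons the 2 genotypes overlapped. For *Arntl* against *Nr1d1* the mean was -2.78 ± 2.89 (SD, n = 3) for Trf1+/+ against -1.86 ± 2.76 (SD, n = 3) in Trf1flox/flox mice. For *Arntl* against *Dbp* it was 3.24 ± 5.95 (SD, n = 3) against 3.23 ± 5.73 (SD, n = 3), with an SD above the difference of the genotypes. *Dbp* was at the floor in 4 libraries and *Per2* in 3, so that their differences there restate the level of *Arntl* itself.

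**Figure D3:**
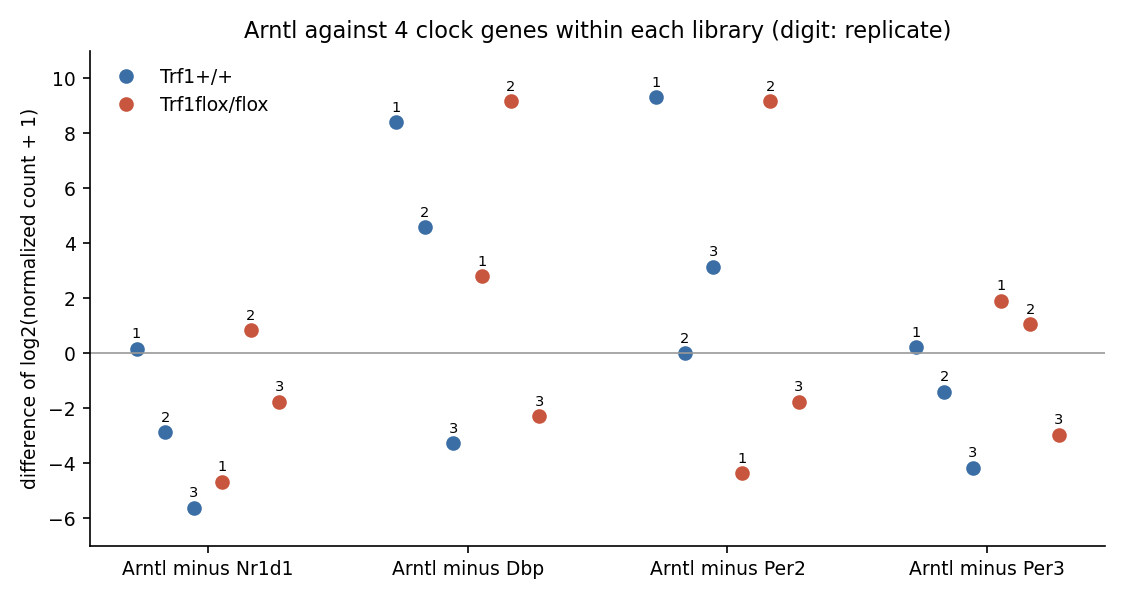
Log2(normalized count + 1) of *Arntl* minus that of *Nr1d1*, *Dbp*, *Per2* and *Per3* within each library, with Trf1+/+ in blue, Trf1flox/flox in red and the replicate as a digit. Trf1+/+ replicate 1 and Trf1flox/flox replicate 2 have the highest values against *Nr1d1*, *Dbp* and *Per2*, and the genotypes overlap in all 4 comparisons.

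Over the members, 0 of the 6 that passed the filter had an adjusted p under 0.05 in limma, as 0% of the 9966 tested genes did. DESeq2 also called 0 of the members, where it called 0.582% of all tested genes. None had an unadjusted p under 0.05 in limma, edgeR or DESeq2, where 4.56%, 1.97% and 4.11% of all tested genes had one. In limma the share was 3.54% for genes higher and 1.01% for genes lower in Trf1flox/flox mice. Of the 6 genes, 2 were higher (*Per2* and *Clock*) and 4 lower in Trf1flox/flox mice, with a median log2 difference of -0.77 beside 0.20 over all tested genes. *Per2* passed the filter only with the Trf1flox/flox libraries, where it was higher. Of all tested genes 55.9% had a log2 difference above 0 and 44.1% one below 0. Without Trf1+/+ replicate 1, 4 of the 6 were higher. The groups did not overlap for 1 of the 6, *Nr1d1*, against 8.68% of all tested genes in either direction and 3.33% that were lower in Trf1flox/flox mice, so that this count lies close to the background.

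**Figure D4:**
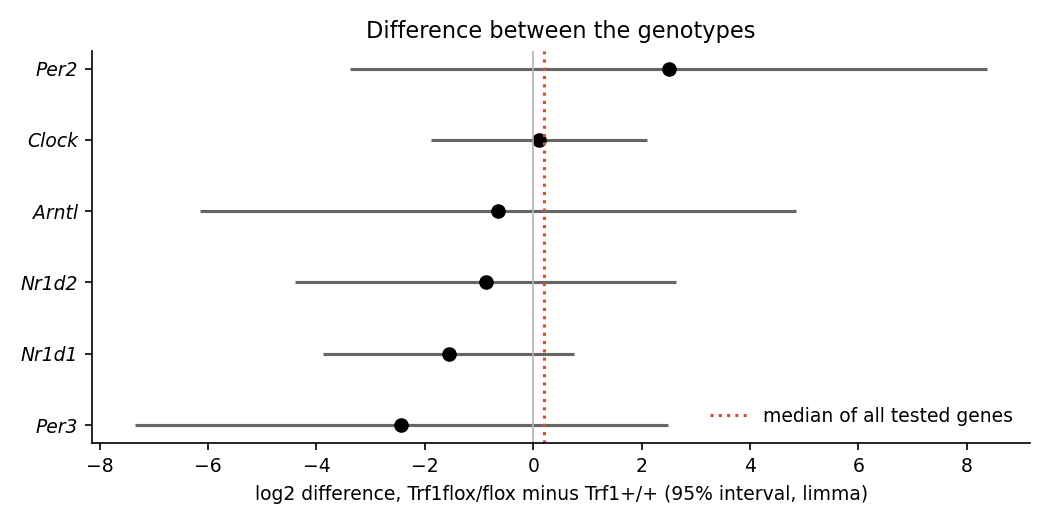
Log2 difference (Trf1flox/flox minus Trf1+/+) of the 6 clock genes that passed the filter, as points with 95% intervals from limma, beside the median of all tested genes (dotted, 0.20). All 6 intervals include 0, and the narrowest are those of *Clock* and *Nr1d1*.

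The other genes of the clock machinery and its outputs, 54 listed genes of which 50 were tested, included 35 that were higher and 15 that were lower in Trf1flox/flox mice, with a median log2 difference of 0.75. Of all tested genes 55.9% were higher, with a median of 0.20. In limma 0 had an adjusted p under 0.05. An unadjusted p under 0.05 was found for 3, *Csnk1e*, *Sgk1* and *Tspan4*, all of them higher, where 4.56% of all tested genes had one. All 3 met the filter on low values only with the Trf1flox/flox libraries, where they were high. By edgeR 0 passed at the adjusted and 1 at the unadjusted level, and by DESeq2 0 and 2, where 1.97% and 4.11% of all tested genes passed unadjusted. The groups did not overlap for 8 of the 50 genes, 16% against 8.68% of all tested genes, 5 of them higher and 3 lower, where 5.35% and 3.33% of all tested genes were.

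Among the regulators of transcription in the loops, *Npas2*, which encodes a substitute for CLOCK, had 329, 11.6 and 0 normalized counts in Trf1+/+, against 0, 0 and 0.689 in Trf1flox/flox libraries and was not tested. Like *Arntl* it was highest in Trf1+/+ replicate 1, but it was at 0 in Trf1flox/flox replicate 2, the other library with high *Arntl*. *Rora*, which encodes a receptor that activates *Arntl*, had 610.1, 811 and 146 in Trf1+/+ and 428, 356 and 84.8 in Trf1flox/flox libraries. *Tef*, a PAR bZIP gene like *Dbp*, had 1538, 8.29 and 977 in Trf1+/+ and 513, 675 and 298 in Trf1flox/flox libraries, with no value at the floor, and its difference turned from 0.97 in limma to -0.69 in edgeR. *Nfil3*, which represses through the same D-boxes, had 1011, 1.66 and 0 and then 0, 36.1 and 74.4, with a log2 difference of 0.02 (standard error 3.05). *Bhlhe41* (DEC2), a repressor at E-boxes, had 31.2, 57.2 and 47.3 in Trf1+/+ and 28.4, 29.5 and 21.4 in Trf1flox/flox libraries. Its values in Trf1flox/flox mice were the lower ones without overlap, with a log2 difference of -0.72 (standard error 0.75, adjusted p = 0.996 from limma).

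Of the 14 kinase and phosphatase genes, 5 were higher and 9 lower, and for 3 the groups did not overlap, 2 of them higher and 1 lower, against 5.35% and 3.33% of all tested genes. *Csnk1e*, which encodes casein kinase 1 epsilon, a kinase of the PER proteins, had 0, 3.31 and 0.985 normalized counts in Trf1+/+, against 85.9, 163 and 21.4 in Trf1flox/flox libraries. It stood at 0 to 4 reads in the first genotype and 31 to 149 reads in the second. It passed the filter only through the Trf1flox/flox libraries, where it was high, so that a difference was needed for it to be tested, and it is among the counts above. Its adjusted p was 0.343 from limma and lay between 0.253 and 0.999 over its alternatives. *Gsk3b*, another clock kinase, had 46.3, 92.8 and 79.8 and then 159, 570.5 and 227, a log2 difference of 1.95 (standard error 0.87). *Csnk1a1*, which encodes casein kinase 1 alpha, went the other way with 2519, 2609 and 2077 and then 2049, 980.3 and 885. None of the 3 passed the test.

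All 5 tested ubiquitin ligase genes were higher by their log2 difference and none kept the genotypes apart. The 2 with the highest levels were *Huwe1*, with a difference of 0.01 (standard error 0.78), and *Fbxw11*, with 1.31 (standard error 1.20). Of the 14 cofactors, 10 were higher and 4 lower. *Ppargc1a*, which encodes the coactivator PGC-1 alpha, was the cofactor whose groups did not overlap, with 2187, 2743 and 2429 normalized counts in Trf1+/+, against 2164, 789 and 751 in Trf1flox/flox libraries. There Trf1flox/flox replicate 1 lay just under the lowest Trf1+/+ library.

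The output genes, which follow the clock in many tissues, were higher in Trf1flox/flox mice by their log2 difference for all 10 that were tested, where 55.9% of all tested genes were. At an unadjusted p under 0.05 limma had 2 of them, where 4.56% of all tested genes had one, and 0 after adjustment. For 3 of the 10 the groups did not overlap, all higher, against 5.35% of all tested genes. *Usp2*, a deubiquitinase gene, had 292, 891 and 1066 normalized counts in Trf1+/+, against 1233, 1298 and 1151 in Trf1flox/flox libraries. *Tspan4*, a tetraspanin gene, had 0, 17.4 and 118 and then 396, 449 and 193. *Sgk1*, a kinase gene that also responds to glucocorticoids and aldosterone, had 2.67, 0.829 and 61.1 and then 140.1, 711 and 131. The groups did not overlap for these 3 genes, of which *Usp2* and *Tspan4* were lowest in Trf1+/+ replicate 1 and *Sgk1* in replicate 2. Of the other output genes, *Tsc22d3*, *Wee1*, *Leo1* and *Slc9a3* were also lowest in Trf1+/+ replicate 1, where 34.4% of all tested genes were at the floor. Without Trf1+/+ replicate 1, *Tsc22d3* (887 and 429 against 1235, 154 and 429) was lower on average in Trf1flox/flox mice. So were *Leo1* (380 and 148 against 154, 293 and 204) and *Slc9a3* (326 and 611 against 454, 447 and 222). The remaining output genes were still higher. *Por* was lowest in Trf1+/+ replicate 2, and *Nampt* and *Scnn1a* in replicate 3. *Nampt* (1240 against 896) and *Wee1* (168 against 128) had the higher mean in Trf1+/+ mice, and the log2 difference of *Nampt* was 0.04. The log2 differences were 0.91 for *Usp2* (standard error 0.86), 4.65 for *Tspan4* (standard error 1.80) and 4.99 for *Sgk1* (standard error 1.58). Without Trf1+/+ replicate 1 they were 0.33, 2.80 and 4.47. None of the 3 passed the test. Of the 3 Trf1+/+ libraries, 1 reached 10 normalized counts for *Sgk1* and *Wee1*, and 2 did for *Tspan4* and *Tsc22d3*. These genes thus passed the filter only with the Trf1flox/flox libraries, and they are among the counts above. *Sgk1* and *Tspan4* were high in those libraries. *Dbp*, the member that is an output gene, was not tested.

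**Figure D5:**
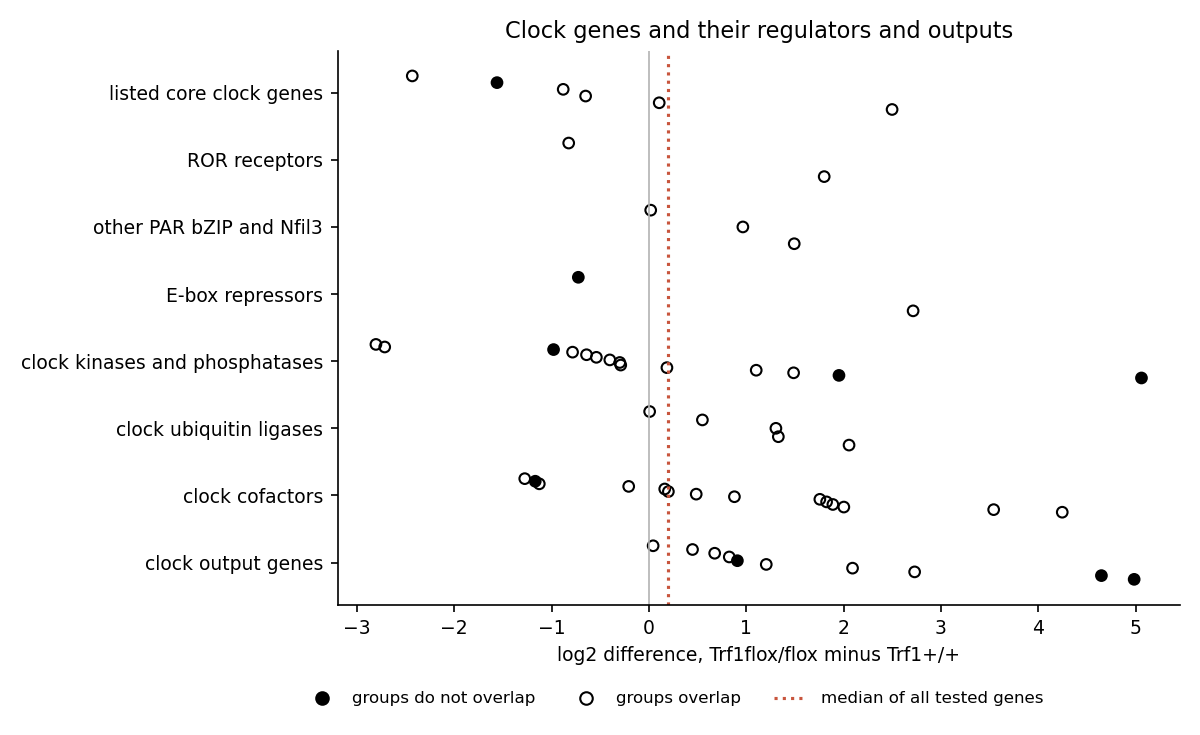
Log2 difference (Trf1flox/flox minus Trf1+/+) of each tested clock gene by list, filled where the 3 libraries of a genotype all lie above the 3 of the other and open where they overlap. The listed core genes spread on both sides of the median of all tested genes (dotted, 0.20), while the 10 output genes all lie above 0, *Nampt* only just (0.04). *Tsc22d3*, *Leo1* and *Slc9a3* do so only with Trf1+/+ replicate 1 included.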

How the data were processed

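RNA of 500 sorted kidney cells per mouse was reverse transcribed from oligo(dT) primers and sequenced from a library that does not mark strand. No molecular identifiers are named. According to the study's methods the authors aligned the reads to GRCm38 with TopHat (v2.0.10), using Bowtie (v1.0.0) and SAMtools (v0.1.19), and counted them with HTSeq (v0.6.1). The submitters' processing notes name GRCm39 and DESeq2. The deposited values are a signal of normalized counts, and 100% of them were whole multiples of the smallest value above 0 in their library (tolerance 0.001), so that whole reads were recovered. The 6 libraries were grouped by the genotype label and numbered in accession order within a genotype, and the numbers pair no mice. The study gives 3 mice a genotype, and the labels do not tie a library to a mouse, so p-values measure the spread between these libraries.

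Genes that reached 10 normalized counts in 3 or more libraries (9966 of 12125) were compared on log2(normalized count + 1) with limma 3.58.1 in R 4.3.3 and Benjamini-Hochberg adjustment over all 9966 genes, with a threshold of 0.05. Alternatives were edgeR 4.0.16 (quasi-likelihood) and DESeq2 1.42.0 on the recovered reads, other pseudocounts, filters and scalings, array weights, and leaving out each library. For genes low in some libraries, a fold change on this scale depends on the pseudocount and can lie under or over the ratio of the means. *Wee1* had a log2 difference of 2.73, although its mean was 168 in Trf1+/+ and 128 in Trf1flox/flox libraries. The fits were tested on simulated data before use. Exon lengths and positions come from GENCODE vM21 (GRCm38). Named genes were all listed members, then, per list, up to 4 genes whose groups do not overlap, by the size of the log2 difference, or else the 2 with the highest mean, and *Terf1*. *Thra*, *Sphk2*, the cell type markers and the further genes named from the output and the immediate early lists fall outside this rule and were chosen after their values were seen. The values of 1 gene that the rule names are not reported here. The members and lists were chosen with earlier results of these data known.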

Additional observations from a re-analysis of the deposited data

How the results depend on the processing

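No paired analysis was possible because the labels carry no replicate numbers that the genotypes share. No member passed an adjusted p of 0.05 under any of the alternatives run (DESeq2 gave no adjusted p for *Arntl*), nor did any other clock gene. Over all genes, DESeq2 placed 58 under an adjusted p of 0.05 where limma and edgeR placed 0, and the cause was not tested. The number of members that were higher in Trf1flox/flox mice was 2, fell to 1 with the filter of 50 normalized counts, under which only 4 members were tested, and lay between 1 and 4 when single libraries were left out. The number whose groups did not overlap lay between 1 and 2, and was 2 without Trf1+/+ replicate 2 or Trf1flox/flox replicate 2, where the share of all tested genes rose from 8.68% to 19.3% and 14.6%. Of the 6 tested members, *Per2*, *Per3* and *Nr1d1* kept their direction in all alternatives that gave a value. For *Per2* only 10 of the 14 alternatives gave one. With array weights the log2 difference was -0.22 for *Clock* and 0.26 for *Nr1d2*. With single libraries left out it lay between -2.56 and 1.02 for *Arntl*, -0.21 and 0.48 for *Clock*, and -2.35 and 0.22 for *Nr1d2*. For *Terf1* it lay between -3.38 and 0.15, for *Tef* between -1.38 and 2.30, for *Nfil3* between -1.88 and 1.93, for *Huwe1* between -0.20 and 0.36, and for *Ier3* between -0.52 and 0.36. In edgeR and DESeq2 it was -0.69 and -0.74 for *Tef*, -2.94 and -3.15 for *Nfil3*, and -0.017 and -0.050 for *Huwe1*. For *Nfil3* it was -0.54 with a pseudocount of 10, and for *Ier3* 0.11 with the upper quartile scaling. Of the other 19 genes compared in this way, 14 kept their direction throughout. A gene whose groups do not overlap, such as *Nr1d1*, could not change direction when a library was left out. Many of these genes were named for that trait, so that the count is no measure of stability. The upper quartile scaling moved the median log2 difference of all tested genes from 0.20 to 0.35. With 3 mice a genotype and a median standard error of 1.60 on the log2 scale, even large differences did not pass. In limma *Csnk1e*, 33.4-fold higher in Trf1flox/flox mice, had an adjusted p of 0.343, and *Sgk1*, 31.7-fold higher, one of 0.816. Both passed the filter only with the Trf1flox/flox libraries, where they were high. The size of the *Csnk1e* fold depends on the pseudocount, with a log2 difference of 5.58 at 0.5 and 2.82 at 10. With a median standard error of 1.60, the lack of a call says little about the size of a difference.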

Other observations

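Genes that respond to glucocorticoids, hormones that also set peripheral clocks, were higher by their log2 difference in Trf1flox/flox mice for 7 of the 9 that were tested, where 55.9% of all tested genes were, and 0 had an adjusted p under 0.05 in limma, edgeR or DESeq2. At an unadjusted p under 0.05, limma had 2, edgeR 0 and DESeq2 2 of them, against 4.56%, 1.97% and 4.11% of all tested genes. 1 of the 2 in limma is *Sgk1*, which is also counted among the clock output genes and passed the filter only with the Trf1flox/flox libraries, where it was high. *Fkbp5*, which encodes a chaperone that restrains the glucocorticoid receptor, had 30.3, 20.7 and 63.1 normalized counts in Trf1+/+, against 192, 370.5 and 434 in Trf1flox/flox libraries. All 3 Trf1flox/flox libraries lay above all 3 Trf1+/+ libraries, with a log2 difference of 3.16 (standard error 0.85, adjusted p = 0.580 from limma). With single libraries left out it lay between 2.82 and 3.60. *Klf15*, a transcription factor gene under the control of both the clock and glucocorticoids, went the other way, with 651, 1214 and 872 and then 451, 645 and 148. Its log2 difference was -1.33 (standard error 0.90, adjusted p = 0.996 from limma).

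Immediate early and dissociation genes, many of which rise when tissue is digested, were listed together with *Creb1*. Of the 12 tested on this list, 10 were lower in Trf1flox/flox mice, where 44.1% of all tested genes were. None had an adjusted or unadjusted p under 0.05 in limma. The median log2 difference of the list was -0.72, beside 0.20 over all tested genes, and the groups overlapped for all 12. *Jun*, *Junb*, *Btg2*, *Ier2*, *Dusp1* and *Hspa1a* were at 0 in Trf1flox/flox replicate 2, where 20.0% of all tested genes were at the floor. *Junb* and *Ier2* were at 0 in Trf1+/+ replicate 2 as well. The log2 differences of *Dusp1* (-0.03) and *Crem* (-0.07) were small, and *Dusp1* had the higher mean in Trf1flox/flox mice (194 against 84.3). *Creb1*, which encodes a factor that acts on the *Per1* promoter, had 2128, 207 and 270.0 normalized counts in Trf1+/+, against 11.2, 952 and 138 in Trf1flox/flox libraries. It was highest in the same library of each genotype as *Arntl*. *Ier3* was more even, with 245.8, 488 and 839.5 and then 342, 482 and 539.6, and a log2 difference of -0.06 (standard error 0.84).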
